A study of Mus musculus with 22 samples.

Results

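Transcripts of 10 genes that encode nutrient transporters of the blood-brain barrier were followed through 21 RNA sequencing libraries of sorted mouse embryo cells. The genes were taken by name from a list of such transporters, chosen with earlier results of these data known. All 10 had a row among the 55376 genes of each count file: Slc2a1, Mfsd2a, Slc7a5, Slc3a2, Slc7a1, Slc16a1, Slco1c1, Slco1a4, Slc38a5 and Tfrc. Cells were sorted at E12.5, in mid-gestation, in 2 series. In the knockout series, endothelial cells positive for a Kdr-Cherry reporter (Kdr encodes a VEGF receptor) and motor neurons positive for ISL1-fGFP (ISL1 is a transcription factor of these neurons) came from spinal cord dissected together with its meninges, from wild-type embryos or embryos with a Plxnd1 knockout, in 3 batches. Plxnd1 encodes a semaphorin receptor. Neither the deleted stretch nor the cells in which it was lost are named in the labels. In the regional series, Kdr-Cherry+ endothelial cells of wild-type embryos came from the cord parenchyma (5 libraries, of which batches 1 to 3 held ventral cord and batches 4 and 5 whole cord) or from the spinal meninges (5 libraries). Embryos of a genotype were pooled, in numbers that the labels leave out. All p-values therefore describe how much libraries vary, which may be technical.

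Endothelial cells of the brain and spinal cord are sealed to one another by tight junctions, so polar nutrients enter the tissue through carriers in their membranes. Slc2a1 carries glucose. Slc7a5 is the light chain, and Slc3a2 the heavy chain, of an exchanger of large neutral amino acids, while Slc7a1 takes up cationic amino acids and Slc38a5 glutamine and related amino acids. Slc16a1 carries lactate and ketone bodies, and Slco1c1 thyroid hormone. Slco1a4 carries organic anions, Mfsd2a imports lysophospholipids with omega-3 fatty acids, and Tfrc is the receptor that takes up transferrin-bound iron. Such carriers are acquired as vessels grow into the neural tube, and vessels of the meninges differ from those of the parenchyma. Tfrc, Slc3a2 and Slc7a5 are also used by most dividing cells and Slc2a1 by red cell precursors, so none of these 4 marks endothelium alone.

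Of the 3 libraries of wild-type endothelial cells, batch 2 was not used, because its file could not be told from that of knockout batch 1: 0 of 55376 genes differed, where any other of the 231 library pairs differed in at least 24532. Plxnd1 was low in it (727 counts, beside 5997 and 4856 for batches 1 and 3), and n was thus 2 for wild-type endothelial cells. Library totals ran from 20680902 to 27035395 counts (knockout series) and from 15685784 to 21493255 counts (regional series). Levels are given as CPM, the counts of a gene for every 1000000 counts of a library after TMM scaling. Plxnd1 stood at 213 and 175 CPM in wild-type endothelial libraries, and at 28.9, 15.4 and 18.7 CPM in knockout ones. Motor neurons of wild-type embryos had 5.14 to 12.1 CPM, and those of knockout embryos 0.645 to 1.78 CPM. The endothelial sorts also held transcripts of other cells. Pan-endothelial transcripts (the sum of Pecam1, Cdh5, Tie1, Tek, Erg, Esam, Eng, Robo4, Ptprb and Clec14a) made up 1346 to 2967 CPM in spinal, 696 to 1469 CPM in meningeal and 445 to 935 CPM in knockout-series endothelial libraries. In the same libraries the 11 erythroid genes with a row summed to 4363 to 44968, 6968 to 53148 and 10336 to 22845 CPM. The 9 fibroblast genes of the meninges summed to 832 to 1500 CPM in spinal, 9423 to 12448 CPM in meningeal and 9486 to 11050 CPM in knockout-series endothelial libraries. The 2 series were counted with different settings, and levels are not compared between them.

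Promoter sequences are shown for 4 of the genes, because their transcripts mark the extremes of what follows. With TMM scaling of all libraries Mfsd2a had the largest regional difference, Slco1c1 and Slc38a5 were each other's nearest gene by level and the transporters that fell in the paired knockout test, and Slc16a1 had the smallest regional difference on the TMM scale, though not on the endothelial scales used further on, where Slco1a4 differed most. The windows run from 250 bases before to 50 bases after the transcription start given by RefSeq, read 5′ to 3′ on the gene's strand, and capitals mark the motifs found.
Mfsd2a, GRCm38.p6 chr4:122961139-122961438, minus strand: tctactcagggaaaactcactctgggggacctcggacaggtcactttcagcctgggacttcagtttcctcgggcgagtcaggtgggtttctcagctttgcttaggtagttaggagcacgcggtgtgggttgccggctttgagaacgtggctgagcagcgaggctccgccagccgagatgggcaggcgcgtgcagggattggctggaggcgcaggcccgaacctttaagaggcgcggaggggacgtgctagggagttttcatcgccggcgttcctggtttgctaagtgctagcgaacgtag
Slco1c1, GRCm38.p6 chr6:141524104-141524403, plus strand: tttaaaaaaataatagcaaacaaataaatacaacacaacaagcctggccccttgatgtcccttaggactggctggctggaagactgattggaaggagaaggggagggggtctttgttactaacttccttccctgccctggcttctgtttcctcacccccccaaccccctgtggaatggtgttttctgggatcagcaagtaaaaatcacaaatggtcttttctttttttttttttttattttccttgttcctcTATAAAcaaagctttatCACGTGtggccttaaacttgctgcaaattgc
Slc38a5, GRCm38.p6 chrX:8271131-8271430, plus strand: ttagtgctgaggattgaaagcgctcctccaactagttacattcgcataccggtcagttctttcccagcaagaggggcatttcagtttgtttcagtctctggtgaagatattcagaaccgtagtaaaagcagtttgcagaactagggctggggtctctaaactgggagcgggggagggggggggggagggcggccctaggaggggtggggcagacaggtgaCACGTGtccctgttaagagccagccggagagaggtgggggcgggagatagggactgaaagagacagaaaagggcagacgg
Slc16a1, GRCm38.p6 chr3:104638414-104638713, plus strand: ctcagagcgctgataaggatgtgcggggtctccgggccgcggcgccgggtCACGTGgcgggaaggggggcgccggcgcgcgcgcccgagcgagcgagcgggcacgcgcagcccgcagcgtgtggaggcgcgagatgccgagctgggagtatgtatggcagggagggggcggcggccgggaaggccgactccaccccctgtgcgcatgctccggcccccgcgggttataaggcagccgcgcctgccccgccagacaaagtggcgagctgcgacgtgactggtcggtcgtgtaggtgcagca

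The E-box CACGTG was found in the windows of Slco1c1 (at position 19 from the start site), Slc38a5 (at -30) and Slc16a1 (at -200), 3 of the 9 transporters with an entry. Of all 32851 promoters of the table, 7.15% held it. TATAAA was found in the windows of Slc2a1, Slc7a1 and Slco1c1, against 13.6% of all promoters. CTTTGAA, a core read by TCF/LEF factors, was found in those of Slc3a2 and Slc7a1 (5.14% of all), with CTTTGAT also in Slc7a1 (3.73%). The ETS core CCGGAAG was found in Slc3a2 alone among the 9 (8.86% of all), and the SOX core AACAAT in Slc7a1 and Slco1a4 (10.7%). TGACGTCA, the cAMP response element, and TGATGNAAN, an amino acid response element, matched none of the 9 and 1.79% and 3.95% of all promoters. Both strands were searched, and Slc7a1 and Tfrc had 2 windows each. GC content ran from 40.7% for Slco1a4 and 42% for Slco1c1 to 73.7% for Slc16a1, against a median of 52.7% over all promoters. No entry for Slc7a5 was in the table.

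The first comparison set endothelial cells of the cord against those of the meninges. Of the 10 transporters, 8 rose in spinal cells, 1 fell and 1 did not pass (edgeR's quasi-likelihood test, Benjamini-Hochberg adjusted p under 0.05 over 16213 genes). Of all genes tested, 24.8% rose and 23.0% fell. The lipid carrier Mfsd2a had the largest rise, the amino acid heavy chain Slc3a2 the smallest, Slco1a4 fell, and the lactate carrier Slc16a1 did not pass. The transporters summed to 4671 ± 1142 CPM in spinal and 1231 ± 282 CPM in meningeal libraries (SD, n = 5 each). The median log2 fold change was 2.02 over the 10 transporters, 1.44 over the 10 pan-endothelial genes and 0.01 over all genes.

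Mfsd2a was at 371, 273, 212, 377 and 347 CPM in spinal batches 1 to 5. In meningeal batches 1 to 5 it was at 11.1, 9.62, 13.8, 21.6 and 14.1 CPM. The lowest spinal library was above the highest meningeal one by a wide gap, and the level rose by 4.49 ± 0.25 on the log2 scale (SE; edgeR adjusted p = 1.3e-07), with within-batch differences of 3.93 to 5.05. The meningeal mean was 4.45% of the spinal mean, against 41.3% for the pan-endothelial sum.

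The glucose carrier Slc2a1 was at 1314, 1006, 727, 1477 and 1398 CPM in spinal batches 1 to 5. Meningeal batches had 212, 163, 242, 362 and 273 CPM. The groups did not overlap, and Slc2a1 rose by 2.24 ± 0.24 (edgeR adjusted p = 1.1e-05), with a spinal mean of 1185 ± 312 and a meningeal mean of 250 ± 74.5 CPM.

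The thyroid hormone carrier Slco1c1 was at 174, 131, 82.6, 165 and 178 CPM in spinal and at 11.9, 9.43, 12.8, 27.0 and 16.0 CPM in meningeal batches. It rose by 3.24 ± 0.30 (edgeR adjusted p = 2.7e-06). The glutamine carrier Slc38a5 was at 191, 147, 87.9, 228 and 231 CPM in spinal and at 27.2, 23.3, 29.2, 54.9 and 35.2 CPM in meningeal batches, a rise of 2.38 ± 0.29 (edgeR adjusted p = 2.6e-05). For both genes spinal batch 3 was the lowest spinal library and meningeal batch 4 the highest meningeal one, and the groups did not overlap.

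Among the other amino acid carriers, Slc7a5 was at 624 to 1312 CPM in spinal and 192 to 339 CPM in meningeal libraries and rose by 2.06 ± 0.22 (edgeR adjusted p = 1.1e-05). The cationic carrier Slc7a1 was at 410 to 859 and 125 to 298 CPM and rose by 1.99 ± 0.27 (edgeR adjusted p = 6.1e-05). The heavy chain Slc3a2 was at 650, 587, 411, 821 and 777 CPM in spinal and at 307, 326, 349, 422 and 387 CPM in meningeal batches. Its groups overlapped, because spinal batch 3 lay below meningeal batch 4, and it rose by 0.86 ± 0.18 (edgeR adjusted p = 0.00168), higher in 5 of 5 batches. The iron receptor Tfrc was at 299 to 520 CPM in spinal and 76.5 to 132 CPM in meningeal libraries and rose by 1.94 ± 0.19 (edgeR adjusted p = 3.9e-06). Of the 11 erythroid genes, which share precursors with high Tfrc, none passed in this comparison. Their sums varied widely and overlapped, at 4363 to 44968 CPM in spinal and 6968 to 53148 CPM in meningeal libraries. Meningeal batch 1 had the highest meningeal erythroid sum and the highest meningeal Tfrc level (132 CPM). Spinal batch 1 had the lowest spinal erythroid sum and the highest spinal Tfrc level (520 CPM). The part of erythroid cells in the regional Tfrc difference was not tested.

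Slc16a1 was at 15.0, 12.8, 18.5, 14.2 and 15.5 CPM in spinal and at 19.6, 13.3, 14.3, 21 and 19.3 CPM in meningeal batches. The groups overlapped and the log2 difference was -0.20 ± 0.16 (edgeR adjusted p = 0.310), higher in spinal cells in 1 of 5 batches. In the 2 whole-cord batches alone the difference was -0.45 (edgeR adjusted p = 0.00701), where 27.3% of all genes rose and 26.6% fell. In ventral batches 1 to 3 the within-batch differences were -0.38, -0.05 and 0.37. The difference between ventral and whole cord did not pass (0.44 ± 0.30, edgeR adjusted p = 0.442), so a fall particular to whole cord is not established.

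Slco1a4, often used as a marker of adult brain vessels, was close to absent from these embryonic cells. Spinal batches 1 to 5 had 2, 0, 0, 0 and 5 counts, and meningeal batches had 13, 17, 16, 29 and 19. Every meningeal library was above every spinal one. The ratio of meningeal to spinal counts was 13.6 (95% interval 6.33 to 34.7, exact binomial, counting error only), and the log2 fold change in spinal cells was -3.64 ± 0.65 (edgeR adjusted p = 5.7e-04). It was -4.91 without spinal batch 5. Slco1a4 has related genes nearby on chromosome 6, and reads that align to several places are not counted, so its level is uncertain. Slco1a5, one of those relatives, also fell, from 1.44 ± 0.547 CPM in meningeal to 0.78 ± 0.11 CPM in spinal cells (edgeR adjusted p = 0.0348).

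**Figure D1:**
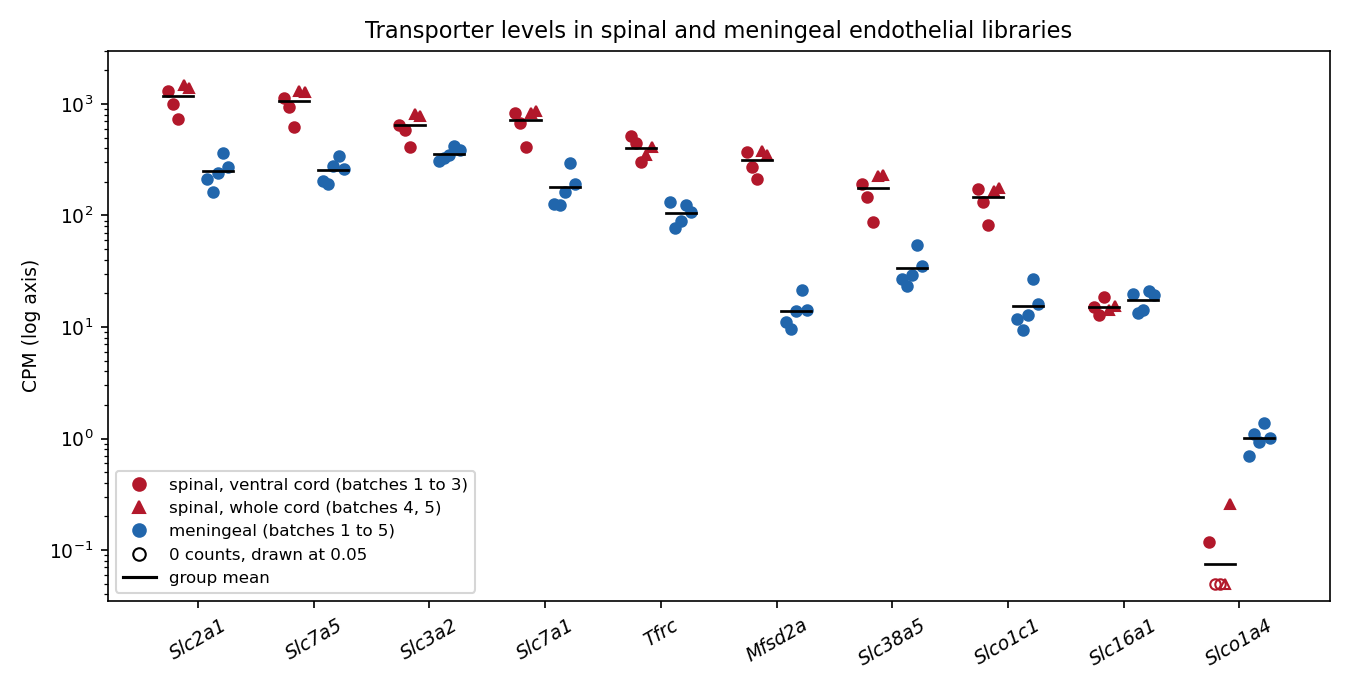
Level of each transporter in the 10 regional libraries, in CPM on a log axis, with 1 point per library, a horizontal line at the group mean and libraries with 0 counts drawn open at 0.05. Of the 8 genes that rose, Slc3a2 alone has groups that overlap, between 411 and 422 CPM. Slc16a1 overlaps between 13.3 and 18.5 CPM, and Slco1a4 is at or below 1.37 CPM everywhere. The share of all genes without overlap was not computed.

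The pan-endothelial genes set the measure for these differences, since they rose too. Pecam1, an adhesion molecule of all endothelium, was at 385, 325, 211, 480 and 478 CPM in spinal and at 88.6, 92.2, 108, 188 and 135 CPM in meningeal batches, a rise of 1.62 ± 0.26 (edgeR adjusted p = 2.2e-04). Of the 10 pan-endothelial genes 8 rose, Clec14a fell by 1.51 ± 0.30 and Cdh5 did not pass (0.49 ± 0.28). Their sum followed the transporters within each group as well. Spinal batch 3, the lowest spinal library for 8 of the 8 transporters that rose, had the lowest spinal sum (1346 CPM), and meningeal batch 4, the highest for 7 of the 8, had the highest meningeal sum (1469 CPM). In bulk samples a lower share of endothelial cells and less RNA per cell cannot be told apart.

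Libraries were therefore also scaled so that the pan-endothelial sum was constant. This lowered the median log2 fold change of all genes to -1.24, so that 6.31% of genes rose and 74.7% fell. Among the transporters 7 rose, 2 fell and 1 did not pass. Mfsd2a rose by 3.24, Slco1c1 by 2.0, Slc38a5 by 1.09, Slc2a1 by 0.96, Slc7a5 by 0.76, Slc7a1 by 0.74 and Tfrc by 0.65 (edgeR adjusted p = 0.0463 for Tfrc, the highest of the 7). Slc3a2 changed sign, to -0.46 (edgeR adjusted p = 0.121). Slc16a1 fell by 1.39 (edgeR adjusted p = 9.0e-04) and Slco1a4 fell by 4.92. With Pecam1 alone held constant, where 4.87% of genes rose and 82.1% fell, Mfsd2a (2.90), Slco1c1 (1.67), Slc38a5 (0.75) and Slc2a1 (0.63) rose. Slc3a2 (-0.80), Slc16a1 (-1.72) and Slco1a4 (-5.27) then fell, and Slc7a5 (0.42), Slc7a1 (0.41) and Tfrc (0.32) did not pass.

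Library by library, Mfsd2a amounted to 12.3% to 15.7% of the pan-endothelial sum in spinal and 1.26% to 1.59% in meningeal cells. Slco1c1 amounted to 5.55% to 6.74% and 1.24% to 1.84%. Slc2a1 amounted to 47.8% to 54.1% and 21.4% to 30.5%, and Slc38a5 to 6.53% to 8.21% and 3.05% to 3.90%. These ranges were narrow and did not overlap. For 8 of the 10 transporters an exact two-sided permutation test of this ratio over the 5 and 5 libraries gave p = 0.00794, the smallest that the design allows. In 6 of them the spinal libraries were above and in 2 below, namely Slc16a1 (0.718% and 1.88%) and Slco1a4 (0.00274% and 0.107%). By edgeR with the pan-endothelial sum held constant, 6.31% of all genes rose and 74.7% fell. The exact test was run on the transporters alone, so the share of all genes at this p or without overlap is not known. P-values adjusted over the 10 tests are given for each. The exceptions were Slc3a2 (27.8% ± 1.93 in spinal and 38.2% ± 6.03 in meningeal cells, exact p = 0.0159, adjusted 0.0177) and Tfrc (18.0% ± 4.54 and 11.5% ± 4.26, exact p = 0.0476, adjusted 0.0476), whose groups overlapped. The adjusted p of the other 8 was 0.00992.

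**Figure D2:**
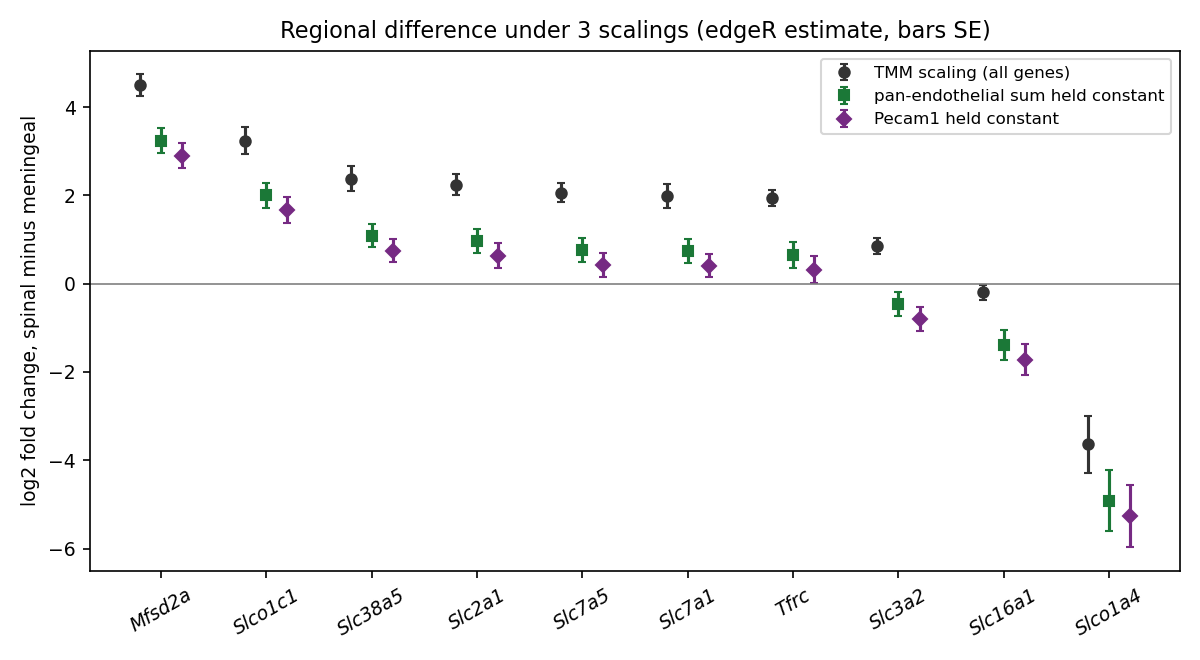
Log2 fold change of each transporter, spinal minus meningeal, with its SE, from edgeR with TMM scaling, with the pan-endothelial sum held constant and with Pecam1 held constant. Each gene shifts down by a similar amount. Mfsd2a stays at 2.90 or above, Slc3a2 crosses 0, and Slc16a1 and Slco1a4 stay below it.

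Other cells moved with the regions too. The 8 pericyte genes summed to 3641 to 9125 CPM in spinal and 1309 to 1739 CPM in meningeal libraries, and 6 of them rose and 1 fell. The neural progenitor genes summed to 1001 to 1577 and 419 to 494 CPM (7 of 7 rose) and the neuronal genes to 1030 to 2305 and 133 to 374 CPM (7 of 7 rose), while 9 of 9 fibroblast genes fell. Transthyretin (Ttr) was at 3.7 to 80.1 CPM in meningeal and 0 to 0.196 CPM in spinal libraries. The part of these cells in the differences of Slc7a5, Slc3a2, Slc7a1, Slc16a1 and Tfrc was not tested.

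The heavy and light chain of the large neutral amino acid exchanger differed unequally between the regions. Per kilobase of exon, Slc7a5 stood to Slc3a2 as 1.49, 1.38, 1.3, 1.37 and 1.41 in spinal batches 1 to 5 and as 0.566, 0.506, 0.678, 0.691 and 0.575 in meningeal batches. Counts per kilobase were thus higher for the light than the heavy chain in each spinal library and lower in each meningeal one. The annotated exon lengths used (3517 and 3022 bases) may differ from those of the transcripts expressed. On which side of 1 the transcripts themselves stand is therefore not settled, and the difference between regions is what the ratio shows. The means were 1.39 ± 0.0681 and 0.603 ± 0.0789 (SD, n = 5 each), a log2 difference of 1.21 (exact two-sided permutation p = 0.00794, the smallest possible). This ratio does not depend on library scaling. In the knockout series, counted with other settings and not compared with the regional one, it was below 1 in all 11 libraries. Wild-type endothelial cells had 0.768 and 0.801 and knockout ones 0.524 to 0.859. Motor neurons had 0.397 to 0.473 in the wild type and 0.477 to 0.498 in the knockout. Between wild-type endothelial cells and motor neurons the log2 difference was 0.84 (exact p = 0.2, where 2 against 3 libraries cannot go below 0.1), and between knockout and wild-type endothelial cells it was -0.21 (exact p = 0.6). Over the 5 comparisons of this ratio the adjusted p was 0.0397 for the regions.

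**Figure D3:**
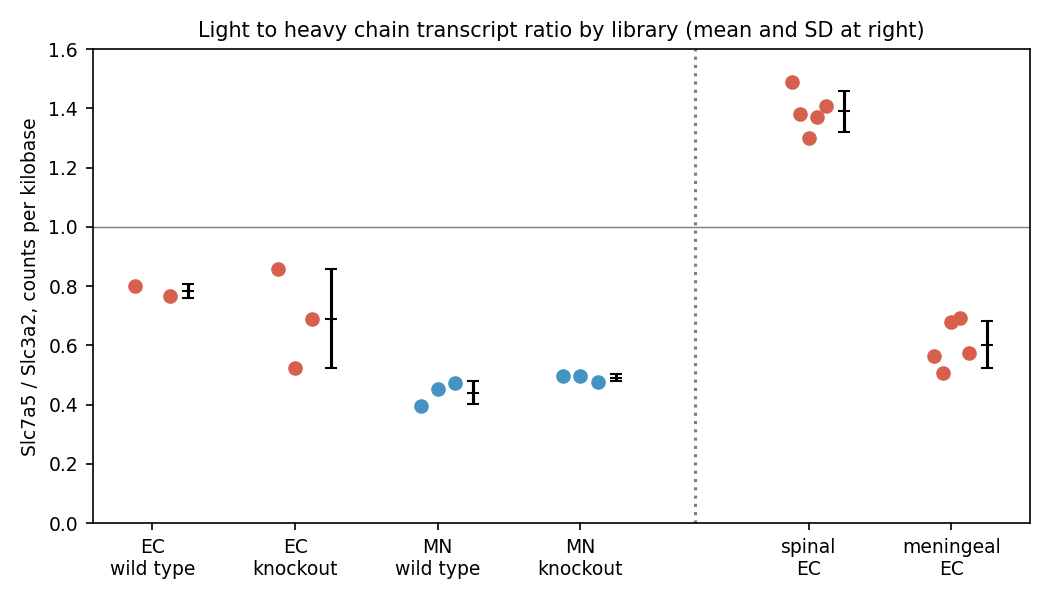
Ratio of Slc7a5 to Slc3a2 counts per kilobase in each library, by group, with the mean and SD to the right of the points and a dotted line between the 2 series. In the regional series the 5 spinal libraries lie between 1.3 and 1.49 and the meningeal ones below 1. The knockout series, counted with other settings, lies below 1 throughout and is not compared with the regional one.

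The order of the transporters per kilobase differed between the regions as well. In spinal cells Slc2a1 led at 363 CPM per kilobase, followed by Slc7a5 (300), Slc3a2 (215), Mfsd2a (147) and Slc7a1 (100), each above the next in 5 of 5 libraries. Slc38a5 (79.6) and Tfrc (78.1) could not be ordered, since Slc38a5 was higher in 2 of 5 libraries. Slco1c1 (44.6), Slc16a1 (3.43) and Slco1a4 (0.0196) followed in each library. In meningeal cells Slc3a2 led at 118 CPM per kilobase. Slc2a1 (76.8) and Slc7a5 (72.1) came next without a settled order (3 of 5), then Slc7a1 (25.3), Tfrc (20.3), Slc38a5 (15.3) and Mfsd2a (6.53), with Slco1c1 (4.70) and Slc16a1 (3.95) again unsettled (3 of 5) and Slco1a4 last (0.267). Mfsd2a thus stood 4th of 10 in spinal and 7th of 10 in meningeal cells.

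Ventral cord and whole cord were compared through the meningeal libraries of the same batches. None of the 10 transporters passed (edgeR), where 0.140% of 17901 genes were higher and 0.408% lower in this difference of differences. None was at an unadjusted p under 0.05, as 3582 of all genes were, and DESeq2 called none of them and 362 genes higher and 959 lower. The largest values were -1.38 ± 1.40 for Slco1a4, 0.55 ± 0.42 for Slco1c1 and 0.45 ± 0.39 for Slc7a1, and the smallest adjusted p was 0.442, for Slc16a1. With 3 against 2 batches the standard errors of 0.25 to 1.40 leave room for sizeable differences.

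The relatives of the transporters were called in both directions, in a test where 24.8% of all genes rose and 23.0% fell. Of 23 other amino acid carriers 12 rose and 3 fell, with a median log2 fold change of 0.61. The glutamate carriers Slc1a2 (6.05, from 1.33 to 88.2 CPM) and Slc1a1 (4.06) rose, as did the glutamine carrier Slc38a2 (2.0, from 200 to 799 CPM). The cystine carrier Slc7a11 fell by 5.24, from 482 ± 90.3 to 12.8 ± 18.8 CPM, Slc38a4 fell by 2.38 and Slc7a2 by 0.89. Slc1a2 and Slc1a1 are also genes of neural cells, whose markers were higher in spinal libraries, and the part of those cells in their values was not tested. Of 16 other hexose and monocarboxylate carriers 6 rose and 5 fell. Slc16a3, which exports lactate, rose by 1.14, Slc2a3 by 0.95 and Slc2a9 by 1.53, while Slc2a12, Slc2a13 and Slc16a7 fell by 2.32, 1.25 and 1.17.

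Of 12 tested genes of organic anion and thyroid hormone transport and response 5 rose and 2 fell, again beside 24.8% and 23.0% of all genes. Slco5a1 rose by 4.14, Slc22a8, an organic anion carrier of brain vessels, by 2.54 and Slco2b1 by 1.19, and the thyroid hormone receptor gene Thrb fell by 2.10. Of 16 genes of lipid transport and transcytosis 3 rose and 4 fell. The lipoprotein receptor gene Lrp8 rose by 3.71, from 44.3 ± 12.9 to 582 ± 112 CPM, Vldlr by 2.02 and the sphingosine-phosphate exporter Spns2 by 1.23. The fatty acid receptor Cd36 fell by 3.08, from 57.9 ± 19.8 to 6.86 ± 0.624 CPM, Fabp4 by 2.08 and Slc27a4 by 0.34. Of 14 other iron genes Slc11a2 rose by 0.52, and Heph and Hmox1 fell by 1.07 and 0.99. Of 14 genes induced by the amino acid response factor Atf4, Psat1 (0.48), Chac1 (1.64) and Phgdh (0.65) rose and Nupr1 fell by 1.85. With the pan-endothelial sum held constant the carriers that still rose among those named were Slc1a2, Slc1a1, Slc38a2, Slco5a1, Slc22a8, Lrp8 and Vldlr. On that scale Slc16a3 (-0.22), Slc2a3 (-0.30), Slco2b1 (-0.09) and Spns2 (-0.04) changed sign without passing, Slc11a2 (-0.73) and Psat1 (-0.82) fell, Phgdh (-0.55) changed sign without passing, and Slc2a9 (0.19) and Chac1 (0.31) did not pass.

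The next comparison set wild-type endothelial cells against motor neurons of the same cords. All 10 transporters were higher in endothelial cells and passed, in a test where 33.8% of 19266 genes rose and 31.0% fell. Slc38a5 had 29.0 and 23.6 CPM in endothelial batches 1 and 3 and 0.737, 0.528 and 0.586 CPM in motor neuron batches 1 to 3, a rise of 5.39 ± 0.42 (edgeR adjusted p = 1.7e-06). Slco1c1 had 23.2 and 12.7 CPM against 0.86, 0.672 and 1.38 CPM and rose by 4.19 ± 0.61 (edgeR adjusted p = 1.5e-04). Among the transporters with counts in motor neurons, these had the largest rises. The endothelial sort also held erythroid, fibroblast and pericyte transcripts, and specificity to endothelium was not tested.

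Slc2a1 had 268 and 192 CPM in endothelial cells and 21.7, 17.3 and 17.9 CPM in motor neurons, a rise of 3.60 ± 0.23. Mfsd2a had 32.2 and 39.8 CPM against 4.75, 4.42 and 4.94 CPM and rose by 2.93 ± 0.22. Slc7a5 (2.71 ± 0.20), Slc7a1 (2.19 ± 0.23), Slc3a2 (1.88 ± 0.13) and Slc16a1 (1.10 ± 0.21) followed, with edgeR adjusted p of 5.3e-07 to 9.4e-04 over these 6 genes. Slco1a4 had 46 counts over the endothelial and 0 over the 3 motor neuron libraries, at least 19.0-fold higher against a floor of 3 counts over the motor neuron group. Its call (edgeR adjusted p = 0.0261) did not hold without wild-type endothelial batch 1 (0.0902) or without wild-type motor neuron batch 1 (0.0526) or 3 (0.0539).

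Tfrc had 172 and 121 CPM in endothelial cells and 107, 118 and 87.5 CPM in motor neurons. The gap between the groups was small, at 118 to 121 CPM, and the rise was 0.49 ± 0.17 (edgeR adjusted p = 0.0232). It did not hold without wild-type endothelial batch 1 (0.23, edgeR adjusted p = 0.317), without wild-type motor neuron batch 3 (0.38, edgeR adjusted p = 0.0790) or in a fit of the wild-type libraries alone (0.50, edgeR adjusted p = 0.0572). Erythroid genes, which include abundant Tfrc users, summed to 12477 and 22845 CPM in these endothelial libraries and 55.5 to 135 CPM in motor neurons. The higher of both endothelial values of Tfrc was in batch 1, the library with the higher erythroid sum. That library also had the higher pan-endothelial sum (935 against 619 CPM). The part of erythroid cells in the Tfrc difference was not tested.

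The share of the endothelial level found in motor neurons ordered the genes. The motor neuron mean was 71.1% of the endothelial mean for Tfrc, 46.7% for Slc16a1, 27.2% for Slc3a2, 22% for Slc7a1, 15.3% for Slc7a5, 13.1% for Mfsd2a and 8.25% for Slc2a1. It was 5.41% for Slco1c1 and 2.35% for Slc38a5, beside 3.26% for the pan-endothelial sum. The Slc38a5 share, which rests on 11 to 18 motor neuron counts a library, lay below that of the pan-endothelial genes, and every other transporter with counts lay above it. Mean levels per kilobase in motor neurons were led by Slc3a2 (26.7) and Tfrc (20.1), then Slc7a5 (11.7), Slc2a1 (5.82) and Slc7a1 (4.79), each above the next in 3 of 3 libraries. In wild-type endothelial cells of the same series Slc3a2 (98.0), Slc7a5 (76.6), Slc2a1 (70.5) and Tfrc (28.2) led, each above the next in both libraries.

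**Figure D4:**
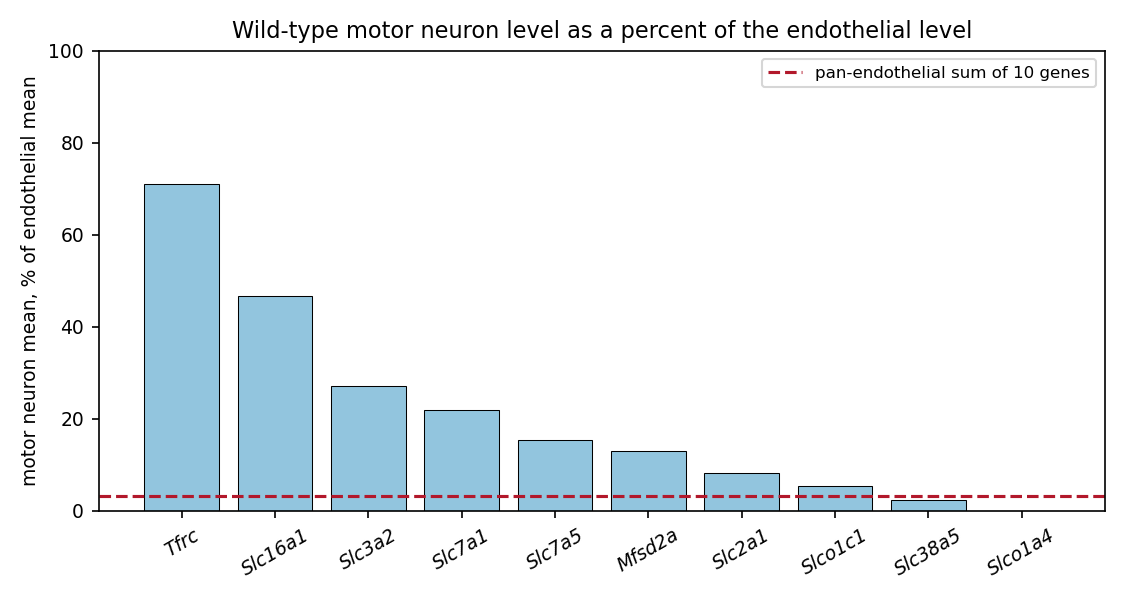
Mean level in wild-type motor neurons (n = 3) as a percent of the mean in wild-type endothelial cells (n = 2) for each transporter, as bars, with the same percent for the pan-endothelial sum as a dashed line. Tfrc stands at 71.1%, Slc38a5 at 2.35% lies below the line at 3.26%, and Slco1a4 has no counts in wild-type motor neurons.

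In the knockout libraries 8 of 10 transporters were called higher in endothelial cells than in motor neurons, where 35.3% of genes rose and 33.5% fell. Tfrc was at 126, 131 and 106 CPM in endothelial cells and 117, 113 and 101 CPM in motor neurons and did not pass (0.13 ± 0.15, edgeR adjusted p = 0.444). Slco1a4 had 25, 52 and 16 counts in endothelial batches 1 to 3 and 31, 1 and 0 counts in motor neuron batches and did not pass (1.47 ± 1.08, edgeR adjusted p = 0.257). Motor neuron knockout batch 1, which held 31 of those 32 counts, was also the one library with a high sum of 5 liver genes (557 CPM, mostly albumin, against 0.501 to 2.07 CPM in the other motor neuron libraries). Without it the difference was 5.63 (edgeR adjusted p = 0.00163). The part of liver RNA in those counts was not tested.

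Relatives of the transporters were called in both directions between the cell types, in a test where 33.8% of all genes rose and 31.0% fell. Of the 23 amino acid carriers 13 were higher and 6 lower in wild-type endothelial than motor neuron libraries, with Slc7a11 (6.29), Slc7a7 (2.83) and Slc6a9 (3.19) rising and Slc1a1, Slc6a8 and Slc38a1 falling by 5.02, 0.81 and 1.62. Of 16 hexose and monocarboxylate carriers 9 rose and 4 fell. Slc2a12 (5.31), Slc2a4 (2.81) and Slc16a9 (3.10) rose, and Slc16a14, Slc2a6 and the neuronal glucose carrier Slc2a3 fell by 3.84, 1.73 and 0.98. Of 14 iron genes 10 rose, among them Heph (6.01), Hmox1 (4.65) and the iron exporter Slc40a1 (6.06), and 3 fell, Tfr2, Slc11a2 and Ireb2 by 3.35, 0.63 and 0.50. Of 13 tested genes of organic anion and thyroid hormone transport 6 rose, among them Slc16a10 (3.17), Slc22a8 (6.39) and Thrb (3.59), and 3 fell, Thra, Slco3a1 and Slco5a1 by 1.57, 1.37 and 3.77. Of 16 lipid genes 7 rose, among them Cavin1 (5.91), Cd36 (7.98) and Plvap (5.32), and 6 fell, among them Vldlr, Slc27a4 and Spns2 by 2.27, 0.97 and 1.70. Of 14 Atf4 targets 8 rose, among them Nupr1 (7.26), Cebpb (5.28) and Trib3 (3.44), and 3 fell, Chac1, Ddit4 and Asns by 3.57, 0.88 and 1.42. Fibroblast, pericyte, macrophage and erythroid genes were higher in the endothelial sort as well, and the part of those cells in these differences was not tested.

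The knockout comparison asked whether the transporters differ in endothelial cells without Plxnd1. Without regard to batch none of 10 passed, and none of 18209 genes was called (edgeR, 0%), including Plxnd1 itself (-3.20 ± 0.26, edgeR adjusted p = 0.161; with batch as a block -3.04 ± 0.11, 5.5e-15). At an unadjusted p under 0.05 were 4 of the transporters and 431 of all genes, and DESeq2 called 1 of the transporters and 28 genes higher and 6 lower. The glutamine carrier Slc38a5 had the largest difference. It was at 29.0 and 23.6 CPM in wild-type batches 1 and 3 and at 11.1, 7.09 and 9.50 CPM in knockout batches 1 to 3. Each knockout library was below each wild-type one, the knockout mean was 35.2% of the wild-type mean, and the log2 fold change was -1.51 ± 0.22 (edgeR adjusted p = 0.842; DESeq2 -1.49, adjusted p = 1.0e-05). Libraries with a common batch number were taken as pairs, which the labels do not state. With batch as a block Slc38a5 fell by 1.34 ± 0.14 (edgeR adjusted p = 5.3e-06), lower in 2 of 2 pairs (-1.37 and -1.30).

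Slco1c1 was at 23.2 and 12.7 CPM in wild-type and at 9.81, 4.50 and 8.89 CPM in knockout batches. Here too the groups did not overlap, with a knockout mean of 43.1% of the wild-type mean and a log2 fold change of -1.22 ± 0.39 (edgeR adjusted p = 0.999). The fold change was -0.70 without wild-type batch 1 and -1.59 without wild-type batch 3. With batch as a block it fell by 0.89 ± 0.18 (edgeR adjusted p = 0.00810), lower in 2 of 2 pairs, though by unequal amounts (-1.23 and -0.51). In the blocked test 0.225% of all genes fell and 0.763% rose. The blocked fit has 1 residual degree of freedom per gene and rests on 2 pairs, and with batch as a block in a fit of all 11 libraries neither gene passed (-1.35 for Slc38a5 and -0.93 for Slco1c1, edgeR adjusted p = 1 for both). Slc38a5 was at -1.20 and Slco1c1 at -0.98 with the file labelled wild-type batch 2 kept as wild type (edgeR adjusted p = 1 for both). That fit holds the counts of knockout batch 1 in both groups, which shrinks any difference by design, so it cannot test these falls.

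The remaining 8 transporters did not pass in either fit. Wild-type libraries had 185 and 128 CPM of Slc7a1, above the 115, 73.6 and 117 CPM of knockout libraries (-0.62 ± 0.24; blocked -0.41 ± 0.11, edgeR adjusted p = 0.0798). Slc16a1 was the one transporter higher in each knockout library, at 20.3, 26.9 and 24.1 CPM against 16.8 and 18.1 CPM (0.45 ± 0.16; edgeR adjusted p = 0.999). Slc7a5 was at 295 and 244 CPM against 234, 140 and 232 CPM (-0.41 ± 0.23). The values of Slc2a1 (-0.24 ± 0.22), Mfsd2a (-0.22 ± 0.23), Slc3a2 (-0.23 ± 0.16), Tfrc (-0.27 ± 0.17) and Slco1a4 (0.57 ± 0.54) came from overlapping groups. Intervals of this size do not show that these levels were the same. Groups did not overlap for 5 of the 10 transporters, and the share of all genes without overlap was not computed. With so few libraries, groups can separate by chance alone, so this count by itself does not show a difference.

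The pan-endothelial sum overlapped between the groups. It was 935 and 619 CPM in wild-type batches 1 and 3 and 820, 445 and 670 CPM in the knockout, so knockout batch 2, the lowest knockout library for 7 of 10 transporters, also had the lowest sum. As a percent of that sum Slc38a5 was at 3.10% to 3.81% in wild-type and 1.36% to 1.59% in knockout libraries, and Slco1c1 at 2.05% to 2.48% and 1.01% to 1.33%, without overlap (exact two-sided permutation p = 0.2 for each, where 2 against 3 cannot go below 0.1). With the sum held constant the log2 fold changes were -1.25 and -0.94 (edgeR adjusted p = 0.961 each), the median of all genes moved to 0.29, and 0.0275% of genes rose and 0.0220% fell. With the sum held constant and batch as a block, a setting chosen after the data were seen, Slc38a5 fell by 1.31 (edgeR adjusted p = 0.00367) and Slco1c1 was at -0.84 (adjusted p = 0.548), where 0.148% of genes rose and 0.0714% fell. Slco1c1 and Slco1a4 lie 25.5 and 25.8 Mb from Plxnd1, on chromosome 6, and Slc38a5 lies on the X chromosome.

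**Figure D5:**
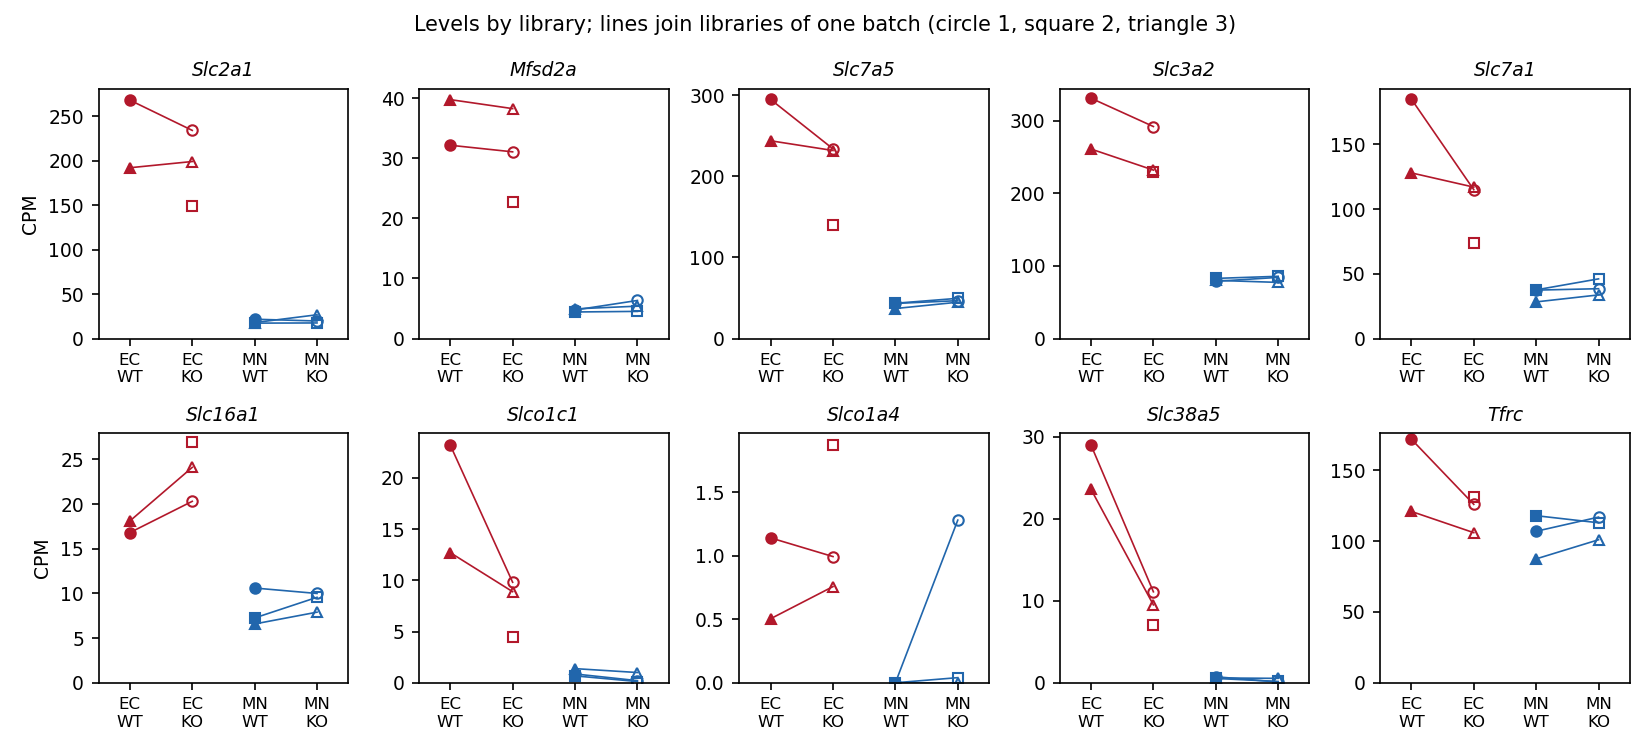
Level of each transporter in CPM, from 0, in endothelial (EC) and motor neuron (MN) libraries of wild-type (WT, filled) and Plxnd1 knockout (KO, open) embryos, with 1 point per library and lines between libraries of one batch. Slc38a5, Slco1c1, Slc7a1 and Slc7a5 are lower in each knockout than in each wild-type endothelial library, and Slc16a1 is higher. The share of all genes without such overlap was not computed, and groups this small can separate by chance alone.

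Of the relatives, none passed in the endothelial knockout without the block in any of the 6 lists of carriers and related genes. With batch as a block Slc16a3, a lactate exporter, rose by 1.20 ± 0.13 (12.8 ± 1.63 to 29.5 ± 3.70 CPM), and the haem oxygenase gene Hmox1 fell by 0.45 ± 0.09 (edgeR adjusted p = 5.3e-06 and 0.0130). In the same fit 4 of 4 tested cartilage genes rose, Sox9 and Col2a1 by 0.74 each, and the part of such cells in the Slc16a3 difference was not tested.

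In motor neurons none of 9 tested transporters passed between knockout and wild type (edgeR, with and without the block; 0 at an unadjusted p under 0.05 without it; DESeq2 called none), where 0.0120% of 16695 genes fell and none rose without the block, and 0.0240% fell and 0.0120% rose with it. Slco1a4 had too few counts to be tested. Wild-type batches had 0.737, 0.528 and 0.586 CPM of Slc38a5 and knockout batches 0.0829, 0.161 and 0.539 CPM, lower in 3 of 3 batches (-1.21 ± 0.60, edgeR adjusted p = 1), and Slco1c1 was also lower in 3 of 3 (-1.11 ± 0.69). These levels rest on 2 to 33 counts a library. The others lay between 0.03 and 0.20. The difference between the knockout effects of both cell types was not called for any transporter (edgeR; 0 of 10), as for all 19266 genes (0%). At an unadjusted p under 0.05 were 2 of the transporters and 352 of all genes, and DESeq2 called none of the transporters and 1 gene higher. It was -0.30 ± 0.66 for Slc38a5 and -0.11 ± 0.95 for Slco1c1, and -0.82 ± 0.31 for Slc7a1 and -0.61 ± 0.26 for Slc7a5, whose unadjusted p were 0.0250 and 0.0428.

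Levels across all libraries of a series were last used to name the genes most like each transporter, by the lower of the Pearson correlations of log2 level over the 11 knockout-series and the 10 regional libraries, among 11492 genes with a mean of at least 5 CPM in both. These libraries differ in cell type, region and endothelial share, which all genes share, and the values are a description. Slco1c1 and Slc38a5 were each other's nearest (0.981), followed by Ccdc141 and Zfp366 for Slco1c1 and by Zfp366 and Sox18 for Slc38a5. Slc2a1 was nearest to Adgrl4, Dll4 and Pdgfb (0.991 each). Mfsd2a was nearest to Myo10 (0.987), Slc2a1 and Tacc1, Slc7a5 to Vwa1 (0.992), Pdgfb and Slc2a1, and Slc7a1 to the neutral amino acid carrier Slc1a4 (0.989), Slc7a5 and Vwa1. Slc3a2 was nearest to Scarb1 (0.991), Smtn and Baiap2 and not to its partner Slc7a5. The 2 genes with the weakest match were Slc16a1, with Mthfd1 (0.840), Crls1 and G3bp1, and Tfrc, with Hps3 (0.858), Cyb5r1 and Sept4. Slco1a4 was below the minimum.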

How the data were processed

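The deposited files hold whole-number read counts per gene. Per the submitters' processing notes, reads were trimmed with Trimmomatic 0.39, aligned with STAR 2.5.3a and counted with featureCounts 1.6.4. Per the file headers, the authors counted single reads without strand in the knockout series and read pairs with strand in the regional one, so genes on opposite strands that overlap are uncertain in the former. Counts were normalised by TMM and tested with edgeR 4.0.16 (R 4.3.3; quasi-likelihood F-test, filterByExpr with a minimum count of 10, Benjamini-Hochberg adjustment over all genes tested, threshold 0.05), without a batch term. Alternatives were DESeq2 1.42.0, other filters and scalings, a batch term as a block and fits without each library, and the scripts were tested on simulated data. Exact permutation tests used scipy 1.17.1. A common batch number in the labels was taken as pairing. Deviations of paired libraries correlated at 0.397 and 0.468 in endothelial cells, 0.271 to 0.318 in motor neurons and -0.273 to 0.303 between the regions. The members and lists were chosen with earlier results of these data known. Named genes are the 10 transporters, Plxnd1, Pecam1, up to 3 relatives of smallest p per list and direction, and the 3 genes most like each transporter. A result for one relative is not reported here. Intervals cover counting error only.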

Additional observations from a re-analysis of the deposited data

How the results depend on the processing

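Over the alternatives run, 1123 of 1177 single transporter values kept their direction and their side of the threshold, 35 changed sign, 10 lost a call and 9 gained one. No cause of these changes was tested. Endothelial knockout calls were 0 without a batch term, 2 lower with the replicate block, and 1 lower with DESeq2 and with the replicate block and pan-endothelial scaling together, a setting chosen after seeing the data. Of all 18209 genes 0% were lower without a batch term, 0.225% with the block and 0.0714% with the block and that scaling, and DESeq2 called 6 lower. The block changed no other call. Between the regions 1 transporter was lower, against 0 with a filter at 5 CPM (which drops Slco1a4), 2 with pan-endothelial scaling, in whole cord and with the block and that scaling, and 3 with Pecam1 scaling, where 4 rather than 8 were higher. Of all genes 23.0% were lower with TMM, 74.7% with pan-endothelial scaling, 82.1% with Pecam1 scaling and 26.6% in whole cord. With the block and pan-endothelial scaling 12784 of 16213 genes were lower. Higher were 24.8% with TMM and 4.87% with Pecam1 scaling. Slc3a2 was at -0.46, -0.80 and -0.45 with pan-endothelial scaling, Pecam1 scaling, and the block with pan-endothelial scaling.

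The other sign changes concern values that passed no test. In endothelial knockout cells pan-endothelial scaling gave 0.03 for Slc2a1, 0.07 for Slc3a2 and 0.09 for Tfrc, and Pecam1 as the reference gave -0.22 for Slc2a1, Mfsd2a and Tfrc and -0.20 for Slc3a2. In motor neurons Slc3a2 was at -0.00 with the block and without knockout batch 1. The difference between cell types was 0.23 for Slco1c1 with the replicate block. It was 0.13 for Slco1c1 and 0.01 for Slc38a5 with the wild-type batch 2 file kept, a fit that holds the counts of knockout batch 1 in both genotypes. The difference between dissections was -0.01 for Slc2a1 and -0.12 for Slc38a5 with pan-endothelial scaling, and -0.07 for Slc38a5 with Pecam1 scaling.

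Leaving out each library in turn gave 8 to 10 transporters higher in wild-type endothelial cells than motor neurons and 8 to 9 in the knockout. With all libraries in, 33.8% of all genes were higher in the wild-type and 35.3% in the knockout comparison. The counts of the other comparisons did not move. Ranges that crossed 0 were -0.47 to 0.03 for Slc2a1 and -0.50 to 0.02 for Tfrc in the endothelial knockout, and -0.03 to 0.29 and -0.03 to 0.19 for the same genes in motor neurons. They were -0.55 to 1.32 for Slco1c1 and -0.71 to 0.78 for Slc38a5 in the difference between cell types. In the difference between dissections they were -0.13 to 0.32 for Slc2a1, -0.02 to 0.57 for Mfsd2a, -0.33 to 0.08 for Slc7a5, -4.05 to 3.01 for Slco1a4 and -0.25 to 0.36 for Slc38a5. Slco1a4, with 0 to 52 counts a library, is limited by depth.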
